A study of Axonopus compressus with 6 samples.

Results

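A set of 115 assembled root transcripts of carpetgrass (Axonopus compressus, a warm-season turf grass) that stood much higher in aluminium-treated than in untreated roots was examined, out of 108674 features in all. The study used seedlings of accession A58 whose roots were about 5 cm long. They were kept for 24 h without added aluminium (0 μM, 3 control libraries) or with 100 μM aluminium (3 aluminium libraries), and the roots were then harvested for RNA-seq. The labels say no more about the plants, their number per library or the growth medium, and both groups share 1 genotype and 1 time.

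The members were chosen by their levels in these same libraries, in RPKM (reads scaled by feature length and by the total of the library). A feature was taken when its mean in the aluminium libraries was at least 5 RPKM and at least 3 times the control mean, when the lowest aluminium library was at least 2 times the highest control library, and when the mean of all 6 libraries was under 250 RPKM. Their levels, ratios and differences between the groups are therefore given as a description and not as a test. The label of the set, transcripts strongly higher under aluminium, is met by its own rule and could not be checked against known aluminium-response genes, because the table gives no gene names. No sequence comes with the features, and none is shown.

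In acid soils aluminium dissolves into an ion that binds cell walls and membranes of the root tip and stops root elongation. In Arabidopsis and rice, roots exposed to it switch on genes for exporters of malate and citrate, which bind the ion outside the root, and for transporters that move it within the cell or alter the cell wall. Zinc-finger transcription factors named STOP1 in Arabidopsis and ART1 in rice control many of these genes. Which carpetgrass features correspond to them is not known here. Features are described by identifier, length, level and assembly component, that is, the cluster of reads that the assembler resolves into gene-level features. Features of 1 component usually have similar sequence, so reads may be divided between them, and their values are not independent of each other. In whole roots, a change in the cells sampled and a change of RNA per cell cannot be told apart.

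The library totals, recovered from the table, lay between 32544238 and 35204519 reads. Pairs of libraries correlated across features at 0.970 to 0.980 within groups and at 0.942 to 0.949 between groups (Pearson's r on the log2 scale). The labels give no batch or day, so handling and treatment cannot be told apart.

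The members were present in untreated roots and reached moderate levels under aluminium. Control means ran from 0.71 to 39.4 RPKM with a median of 2.62, and aluminium means from 5.07 to 125 RPKM with a median of 9.65. None of the 115 members was at 0 in every control library. The 2021 features at 0 in all control libraries stayed below the rule's lower limit, with a highest aluminium mean of 3.82 RPKM. Ranked by mean level among all features, the median member stood at percentile 70.3 in control and at percentile 86.2 in aluminium libraries.

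**Figure D1:**
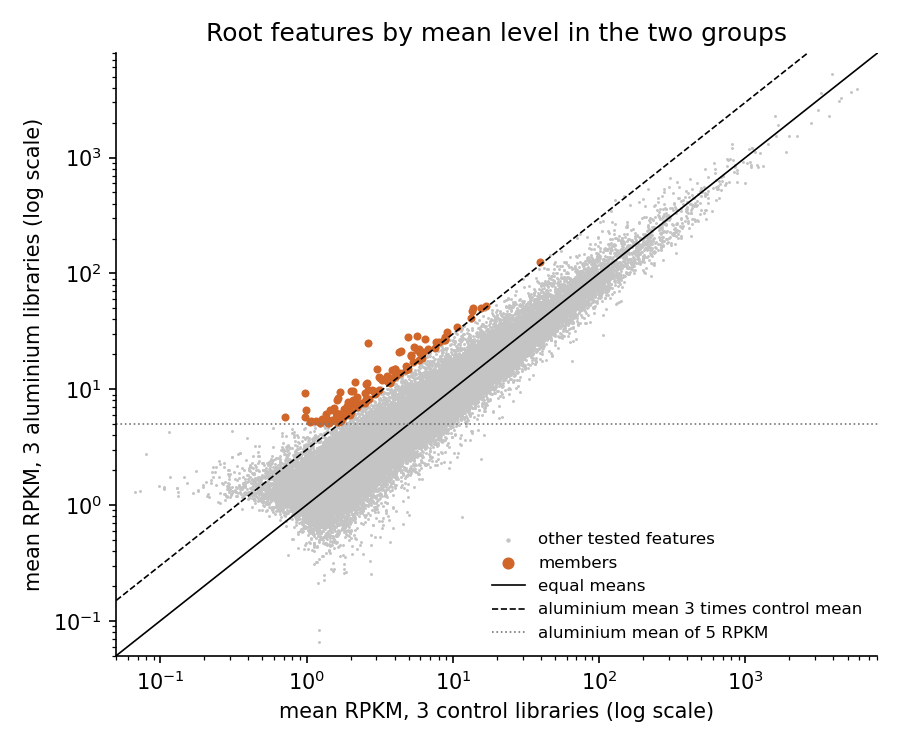
Mean RPKM in control libraries (x axis, log scale) against mean RPKM in aluminium libraries (y axis, log scale) for the features tested that are above 0 in both groups, with the 115 members in orange. The members lie above the dashed line of a ratio of 3 and above the dotted line of 5 RPKM, and most have an aluminium mean under 20 RPKM.

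The ratios were mostly modest. The median ratio of the means was 3.60, with quartiles of 3.20 and 4.12. Of the members, 84 had a ratio from 3 to under 4, 21 from 4 to under 5, and 10 of at least 5, of which 3 were at 8 or more. No member reached a ratio of 10, the largest being 9.64. By level, 61 members had an aluminium mean from 5 to under 10 RPKM and a median ratio of 3.70, and 27 from 10 to under 20 RPKM had a median ratio of 3.33. A further 23 members from 20 to under 50 RPKM had a median ratio of 3.41, and 4 above 50 RPKM had one of 3.19.

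All 115 members passed the abundance filter of the fit over the whole table and were called higher in aluminium (limma on log2(RPKM + 0.5), Benjamini-Hochberg adjusted p under 0.05). Of all 50679 features tested, 18.1% were called higher and 17.3% lower. Since the rule used the same contrast, the count of members called carries no further information. They were 1.26% of the 9159 features called higher. The median log2 change was 1.65 over the members and 0.01 over all features tested. The same rule with the groups exchanged picked 38 features that stood lower under aluminium. After quantile normalization the rule picked 108 features, of which 105 were members, and the exchanged rule picked 46.

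TRINITY_DN38026_c1_g5, a feature of 361 bases, had the highest aluminium level of the members. Its level was 41.6, 40.3 and 36.4 RPKM in control libraries 1 to 3 and 122.6, 124.8 and 127.0 RPKM in aluminium libraries 1 to 3. The libraries of each group lay close together and the groups were far apart. The mean went from 39.4 ± 2.69 to 124.8 ± 2.20 RPKM (SD, n = 3 each), a ratio of 3.16 and a log2 change of 1.65 (SE 0.06, limma scale), from 1405 control and 4654 aluminium reads.

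This feature was a minor part of a larger group that stood higher together. Its DN number, the first part of the identifier, is shared by 6 features, 5 of which were tested, and all 5 were called higher. Over all features tested, 18.1% were called higher. The 5 include TRINITY_DN38026_c1_g5 and another member, whose calls the rule largely sets. A feature of 1596 bases was the most abundant, at 214, 219 and 211 RPKM in control libraries 1 to 3 and 549, 494 and 565 RPKM in aluminium libraries 1 to 3, a ratio of 2.49. It missed the rule both by its ratio and by the upper limit on the mean. Another, of 1197 bases, met the rule except for the upper limit. Its level was 149, 153 and 144 RPKM in control libraries 1 to 3 and 479, 453 and 476 RPKM in aluminium libraries 1 to 3, a ratio of 3.15. A feature of 863 bases had a ratio of 1.94. The remaining tested feature, of 452 bases and from another component of the same DN number, was itself a member. It had a level of 10.4, 8.39 and 8.77 RPKM in control libraries 1 to 3 and 29.8, 31.4 and 33.0 RPKM in aluminium libraries 1 to 3, a ratio of 3.41. Within its component, TRINITY_DN38026_c1_g5 held 2.50% of the reads in control and 2.95% in aluminium libraries, so nearly all reads of that component came from features outside the set.

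The fifth-ranked member by aluminium level had a like setting. It is 382 bases long and had 12.5, 16.0 and 11.8 RPKM in control libraries 1 to 3 and 53.1, 47.1 and 42.8 RPKM in aluminium libraries 1 to 3, a ratio of 3.55. The other 4 features of its component were all called higher, against 18.1% of all features tested. The ratios of these 4 were 3.37, 2.87, 2.61 and 2.49. The most abundant of them, of 394 bases, went from 128 ± 8.77 to 431 ± 14.6 RPKM (SD, n = 3 each). That feature and the feature of 1197 bases described above were the 2 features that met every part of the rule but the upper limit. Each of them thus shares a component with a weaker member.

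The remaining members above 50 RPKM in aluminium libraries were the second to the fourth by rank. The second, of 2889 bases and alone in its component, had 18.3, 16.2 and 15.9 RPKM in control libraries 1 to 3 and 52.9, 51.8 and 50.8 RPKM in aluminium libraries 1 to 3. With 15465 aluminium reads it was the most deeply read member, and its ratio of 3.08 had a 95% counting interval of 2.98 to 3.18. The third, of 222 bases, varied most of these, with 14.2, 16.3 and 10.7 RPKM in control libraries 1 to 3 and 52.5, 60.1 and 38.9 RPKM in aluminium libraries 1 to 3. The fourth, of 2122 bases, had 16.0, 14.8 and 16.2 RPKM in control libraries 1 to 3 and 49.1, 54.8 and 47.5 RPKM in aluminium libraries 1 to 3. In all of these the lowest aluminium library was far above the highest control library, as the rule requires.

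**Figure D2:**
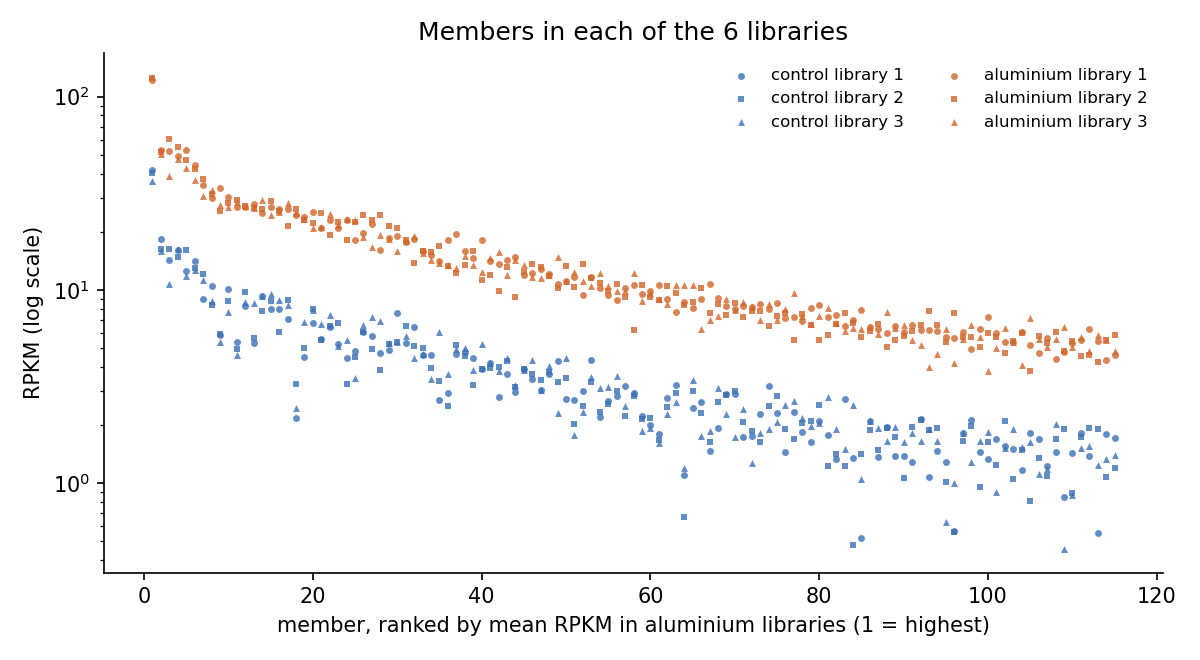
RPKM of each member (y axis, log scale) in each of the 6 libraries, with members ordered along the x axis by their mean in aluminium libraries. Control libraries are blue and aluminium libraries orange, with 1 symbol per library number. The 2 colours do not overlap for any member, and the scatter between control libraries widens among the weaker members.

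TRINITY_DN21461_c3_g1, of 1019 bases, had the largest ratio of the members. It ranked eighteenth by level, with 2.18, 3.25 and 2.44 RPKM in control libraries 1 to 3 and 24.5, 26.3 and 25.0 RPKM in aluminium libraries 1 to 3. The lowest aluminium library was 7.55 times the highest control library. Its percentile among all features went from 70.3 to 94.3. Of the other 3 features of its component, 1 was tested. This sister, of 862 bases, was at 2.57, 2.62 and 3.64 RPKM in control libraries 1 to 3 and at 2.42, 2.93 and 2.49 RPKM in aluminium libraries 1 to 3, with overlapping groups. Its ratio was 0.89, and it was not called (limma adjusted p = 0.57). The remaining 2 were weak, with means of 0.27 and 0.55 RPKM (373 bases) and of 0.11 and 0.20 RPKM (280 bases) in control and aluminium libraries. TRINITY_DN21461_c3_g1 held 50.02% of the component's reads in control and 91.1% in aluminium libraries.

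The next ratios belonged to weak features. The second-ranked by ratio, of 723 bases and alone in its component, had 1.09, 0.67 and 1.19 RPKM in control libraries 1 to 3 and 8.69, 8.37 and 10.6 RPKM in aluminium libraries 1 to 3. The third, of 431 bases, had 0.56, 0.56 and 0.998 RPKM in control libraries 1 to 3 and 5.60, 7.58 and 4.17 RPKM in aluminium libraries 1 to 3. Its ratio of 8.18 rested on 8, 8 and 14 control reads, with a counting interval of 5.62 to 12.4. The fourth, of 235 bases, had a ratio of 6.67 from 4, 11 and 8 control reads and an interval of 4.28 to 10.8. The sixth by ratio was more deeply read than any of the 5 before it, with 849 control and 5040 aluminium reads. It is 1731 bases long and had 5.39, 4.94 and 4.58 RPKM in control libraries 1 to 3 and 26.7, 29.3 and 28.5 RPKM in aluminium libraries 1 to 3. Its ratio of 5.67 had an interval of 5.27 to 6.11.

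For many members the counting interval of the ratio reached the limit of the rule. Pooled over libraries, the members had 23 to 4795 control reads with a median of 209, and 134 to 15465 aluminium reads with a median of 827. The exact 95% counting interval of the ratio of pooled reads lay above 3 in 62 members, and in the other 53 it reached 3 or less. The lowest limit was 2.48, so the interval lay above 2 in all 115. Members were chosen by these same ratios, so the counts against 3 and 2 are a description and not a test. These intervals cover counting error only and leave out the spread between libraries.

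**Figure D3:**
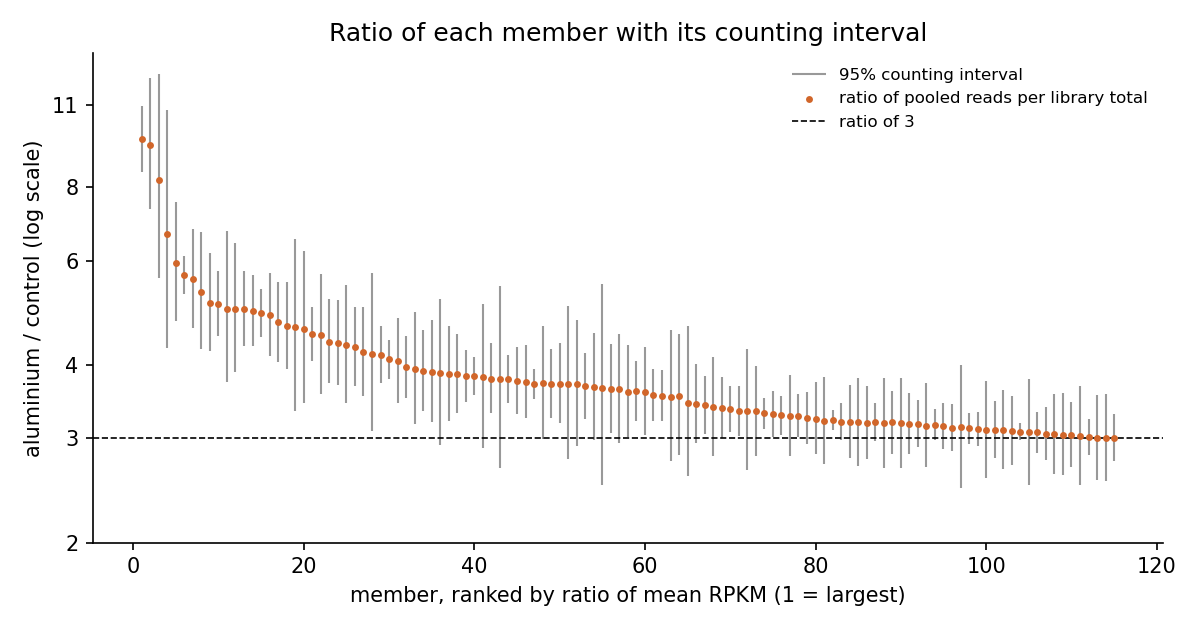
Ratio of pooled reads per library total, aluminium to control (y axis, log scale), for each member ordered by ratio of mean RPKM, with the exact 95% counting interval as a bar. The dashed line marks a ratio of 3, which 53 of the 115 intervals reach or cross, most of them in the right-hand part of the plot.

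The limit of the rule fell within a continuous range of ratios. The member nearest to it had a ratio of 3.01, and 14 members had a ratio under 3.1. Of the 220 features that met every part of the rule but the ratio, 27 had a ratio of at least 2.9, the highest being 2.996. Another 17 features missed only the separation of the libraries, with quotients of the lowest aluminium over the highest control library from 0.99 to 1.98, against 2.05 for the member nearest to the limit. The 3089 features that missed only the aluminium mean had means of up to 4.94 RPKM, against 5.07 for the weakest member.

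Together the members made up a small part of the root's reads. They held 0.0465, 0.0462 and 0.0470% of the reads of control libraries 1 to 3 and 0.168, 0.162 and 0.164% of those of aluminium libraries 1 to 3. The libraries of a group differed little in this sum. Summed RPKM went from 475 ± 3.75 to 1705 ± 31.1 (SD, n = 3 each). The gain of 1229 RPKM was spread over many members, with 6.94% from the highest-level member, 28.2% from the 10 largest gains and 50% reached with 26 members.

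At the median, the members were shorter than all features with an aluminium mean of at least 5 RPKM, a set with no upper limit on level. The median length of the members was 773 bases (quartiles 479 and 1189, range 214 to 4020). Over all features tested the median was 966 bases, and over the 23339 features with an aluminium mean of at least 5 RPKM it was 1204 bases. Of the members, 34.8% were at least 1000 bases long, against 48.5% of the features tested and 58.9% of the features with an aluminium mean of at least 5 RPKM. Members of under 500 bases numbered 31, and 10 were at least 2000 bases long. Shorter features collect fewer reads at a given RPKM, and the part of this in the lengths was not tested.

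The rule required every aluminium library to stand above every control library, so the levels by library are a description. The median ratio to the control mean was 3.63, 3.53 and 3.57 in aluminium libraries 1, 2 and 3. Aluminium library 1 was the lowest of its group in 27 members, library 2 in 42 and library 3 in 46. Over the features tested, aluminium libraries 1, 2 and 3 were the lowest in 28.0, 40.8 and 31.2%. Over the members these shares were 23.5, 36.5 and 40%. The highest library was number 1 in 39 members, number 2 in 39 and number 3 in 37. The median coefficient of variation between libraries was 16.2% in control and 10.5% in aluminium libraries, where counting alone would give about 12.0% and 6.02% at the members' reads. Over tested features with an aluminium mean of at least 5 RPKM, the medians were 6.02% and 7.24%, where counting alone would give 4.25% and 4.17%.

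The rule was also applied to 5 libraries at a time, and the library left out was then compared with the other group. That library took no part in the choice, but the libraries it is compared with did, so each of these ratios was selected on 1 side. Without aluminium library 1, 113 features met the rule. Aluminium library 1 was then at least 2 times the highest control library in 107 of them (94.7%), with a median ratio to the control mean of 3.60. Without aluminium library 2 these values were 117 of 139 (84.2%) and 3.28, and without aluminium library 3 they were 125 of 137 (91.2%) and 3.17. A ratio of 3 or more in the left-out library was found for 89.4, 61.2 and 59.9% of the features in aluminium libraries 1, 2 and 3. For left-out control libraries 1, 2 and 3, the lowest aluminium library was at least 2 times the left-out library in 120 of 129, 119 of 137 and 119 of 137 features. The median ratios of the aluminium mean to the left-out control library were 3.31, 3.37 and 3.19. Over all features tested, with no choice made, the same 2-fold separation was found in 3.61, 2.74 and 3.23% for aluminium libraries 1, 2 and 3, and in 4.45, 4.24 and 4.26% for control libraries 1, 2 and 3. As the features compared were chosen on the other libraries, the difference from these shares is not a test.

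**Figure D4:**
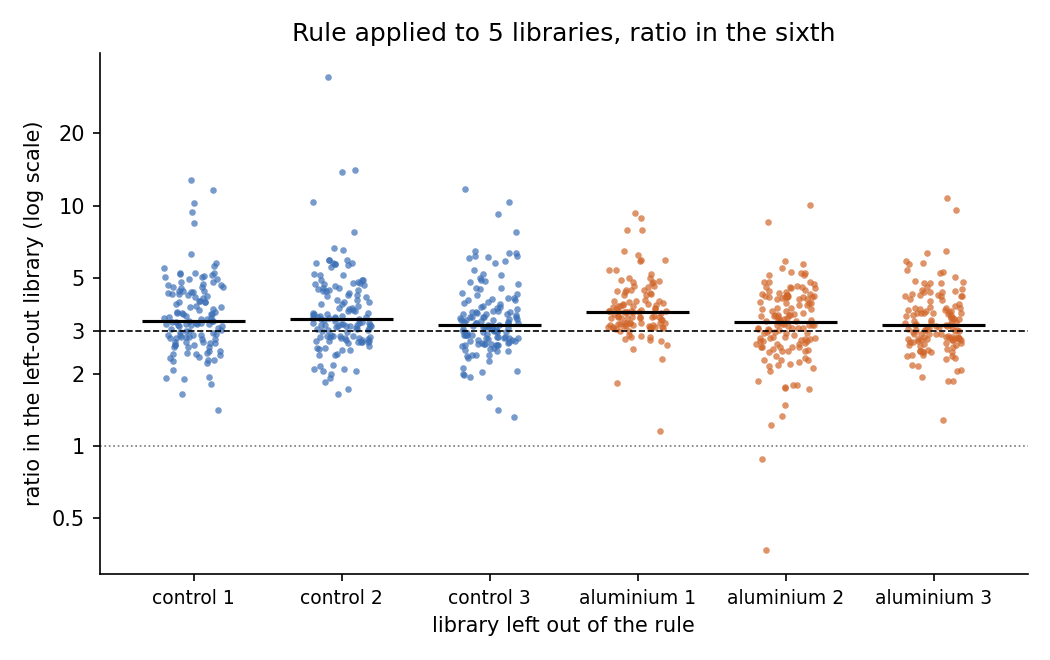
Ratio in the library left out of the rule (y axis, log scale) for each feature that met the rule in the other 5 libraries, by library left out (x axis). Bars mark medians of 3.17 to 3.60, dashed and dotted lines mark ratios of 3 and 1, and 2 points lie under 1, both for aluminium library 2.

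The left-out library overlapped the other group in 4 of these features over the 6 choices, 3 of them for aluminium library 2 and 1 for control library 3. Over all features tested, each library lay clear of the other group, in the direction of the rule, in 35.1 to 40.2%. These 4 features were singled out after their values were seen. None is a member, because the rule over all 6 libraries excludes any overlap. The clearest, of 556 bases, had 3.99, 5.90 and 6.80 RPKM in control libraries 1 to 3, 17.6 RPKM in aluminium library 1 and 17.5 RPKM in aluminium library 3. In aluminium library 2 it was at 2.04 RPKM, below every control library. A feature of 754 bases was likewise at 7.07 and 7.88 RPKM in aluminium libraries 1 and 3 and at 1.62 RPKM in library 2, within the control range of 1.17 to 2.40 RPKM.

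Members seldom shared a component. The 115 members fell into 113 components, 2 of which held 2 members each, and 29 members were the only feature of their component. In 1 of the pairs, the members of 432 and 721 bases had ratios of 5.32 and 4.34. The former had 2.67, 2.02 and 1.78 RPKM in control libraries 1 to 3 and 11.7, 10.4 and 12.4 RPKM in aluminium libraries 1 to 3. Their tested sister, of 2192 bases, was more abundant and had a smaller ratio of 2.07, from 12.5 to 25.9 RPKM. The members of the other pair, of 378 and 756 bases, had ratios of 3.05 and 3.76.

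The non-member features of these components, here called sisters, did not move as a block. There were 257 sisters in 84 components, of which 164 in 78 components passed the abundance filter. That filter asks for 1 RPKM in 3 or more libraries, so the libraries of 1 group can meet it alone. Of these 164, 75 were called higher (45.7%), 13 lower (7.93%) and 76 neither (limma, adjusted p under 0.05). The background over all features tested was 18.1% higher and 17.3% lower. Their median ratio was 1.29, against 1.01 for all features tested, and 27.4% had a ratio of at least 2, against 5.64%. Sisters were chosen through a neighbour that stood higher in these libraries, and shared reads can make them move with it, so these shares are a description. By component, 42 had a called sister that was higher and none that was lower, 7 the reverse, 6 had both and 23 had none called.

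**Figure D5:**
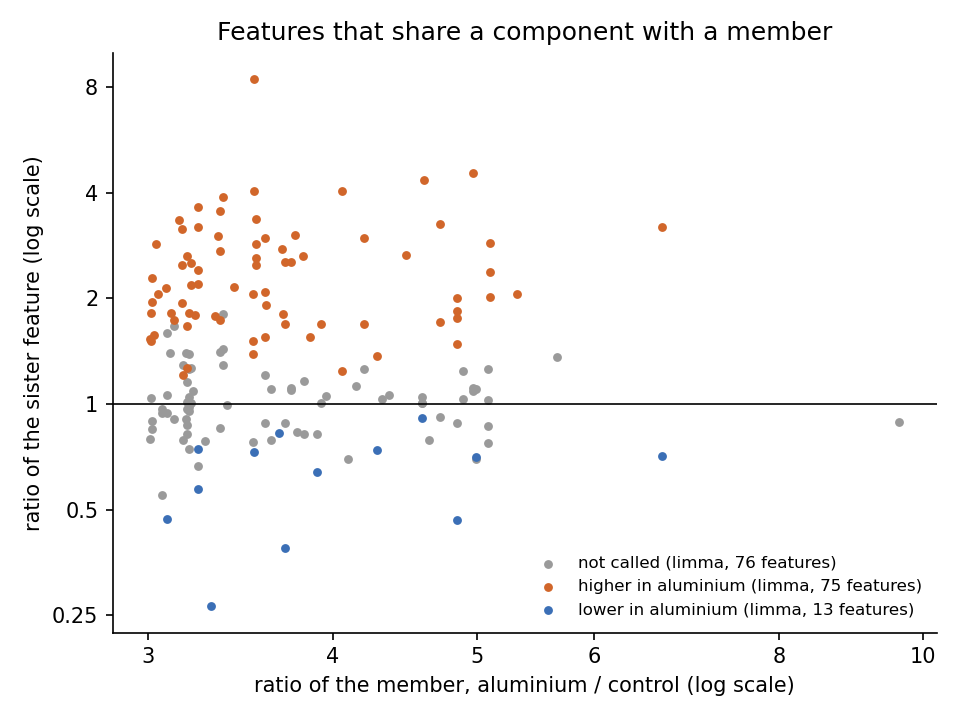
Ratio of mean RPKM, aluminium to control, of each of the 164 tested sisters (y axis, log scale) against the ratio of the member of its component (x axis, log scale; the larger one where there are 2), coloured by the limma call. The 75 sisters called higher and the 13 called lower overlap along the x axis, the 13 at member ratios from 3.09 to 6.67. The tested sister of the member with the largest ratio is near 1 and not called.

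Some tested sisters were more abundant than the member of their component. The control mean of the sister was above that of the member for 83 of the 164 tested sisters, and its aluminium mean was above for 51. Sisters that missed the abundance filter are not in these counts. Over the 84 components with sisters, members held a median of 29.4% of the component's reads in control and 50.4% in aluminium libraries. They held more than 50% of them in 25 components in control and in 42 in aluminium libraries. The share was higher in aluminium libraries in 81 components and not in 3, which the choice of the members for their rise largely sets.

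In 13 components a member stood higher while a sister was called lower. The sisters called lower were 7.93% of those tested, and 17.3% of all features tested were called lower. The lowest sister ratio was in a component whose member of 2995 bases had 4.62, 5.02 and 4.64 RPKM in control libraries 1 to 3 and 15.9, 15.9 and 15.5 RPKM in aluminium libraries 1 to 3. Its sister of 1868 bases had 1.63, 1.11 and 1.60 RPKM in control libraries 1 to 3 and 0.38, 0.36 and 0.40 RPKM in aluminium libraries 1 to 3, a ratio of 0.27. This sister passed the abundance filter through its control libraries alone, where it is higher, so its call is only a description. In the component with the next lowest sister ratio, a member of 4020 bases, the longest of all members, went from 3.52 ± 0.64 to 13.1 ± 2.96 RPKM. Its sister of 1007 bases went from 3.11 to 1.21 RPKM, a ratio of 0.39.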

How the data were processed

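RNA-seq of roots gave 6 libraries, 3 per group. The authors deposited 1 table of RPKM values, per the file name and header, with 6 library columns. Per the submitters' processing notes, Bowtie2 2.2.3 was used, in a role they leave unstated. The sources used here name no assembler, counting tool or filter. Reads, lengths and library totals were worked back from the RPKM values as the smallest whole length that made all 6 reads whole (tolerance 1e-06 reads, 100.0% of features). For 2169 features it was scaled up to at least 201 bases. The true length of a feature could be a whole multiple of the length given, with its reads multiplied alike. Counting intervals are exact (Clopper-Pearson, 95%). The unit counted, single reads or pairs, is unknown.

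The members and lists were chosen with earlier results of these data known. The fit took features that reached 1 RPKM in 3 or more libraries and used limma 3.58.1 in R 4.3.3 on log2(RPKM + 0.5), two-sided, Benjamini-Hochberg over all of them, threshold 0.05. This scale understates changes of weak features, and RPKM does not correct for composition. Identifiers were printed for the member with the highest aluminium mean and for the one with the largest ratio at a control mean of at least 1 RPKM. Other members are given by rank and length, and sisters and features outside the set were picked after their values were seen. A list of aluminium-response genes could not be matched, because the table holds no names. No pair of libraries agreed within counting noise. The labels do not say that libraries came from separate plants, so p-values measure the spread between libraries, which may be technical.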

Additional observations from a re-analysis of the deposited data

How the results depend on the processing

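The number of features meeting the rule was 335 with a ratio of at least 2, 31 with a ratio of at least 4, 552 with an aluminium mean of at least 1 RPKM, 54 with one of at least 10 RPKM, and 62 where the lower counting limit of the ratio had to reach 3, a choice added after the data were seen, as was voom. The median ratio in these settings was 2.80, 4.85, 4.03, 3.37 and 4.01. Components with at least 2 members numbered 17, 1, 26, 2 and 1, and 4 with no upper limit on the mean. These settings change the thresholds of the rule itself. After quantile normalization the median ratio was 3.49, and the cause was not tested. Leaving out 1 library gave 113 to 139 features, a median ratio of 3.43 to 3.64 and 2 to 5 components with at least 2 members, with 5 without aluminium library 2 or 3. All 115 members were called higher (limma) in the fits with another pseudocount, without a filter, with quantile normalization, with voom on recovered reads and with the replicate block. In the fits without 1 library, 114 or 115 were called. With a filter of 5 RPKM there were 98, as fewer were tested. Since the rule used the same contrast, these counts of members are a description. Same-numbered libraries did not deviate together (correlations -0.15, -0.11 and -0.02), and differently numbered ones correlated at -0.06 to 0.17. So few libraries cannot decide whether a number marks a shared batch. With the replicate block 7569 features were higher and 7184 lower. Over all fits, 6173 to 9537 were higher and 6306 to 9427 lower. Reads limit the ratios of weak members most, since a control library had as few as 4 reads of a member.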
